A study of Populus tremula x Populus alba with 20 samples.

Results

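The chilling response of TEML1ox buds was measured as the difference in RNA between 4 libraries harvested after chilling and 4 harvested before it. These are 8 of the 20 libraries of the series and were chosen by genotype and treatment, not by any measured value. TEML1ox stands for hybrid poplar of the INRA clone 717 1B4, a cross of Populus tremula and Populus alba, that overexpresses TEML1, a TEMPRANILLO-like protein, in the lines TEML1_1ox and TEML1_2ox. Plants grew under long days at 22 °C, for 4 weeks by the labels' protocols and 6 weeks by their design text. They then stayed under short days for 8 weeks, which stop growth and set buds. Apical buds were taken at that point (SD8) or 2 weeks later, after the remaining plants had stayed in short days at 4 °C (CH2), both at ZT7. Each line gave 2 replicates per harvest, so SD8 and CH2 hold 4 libraries each. Every TEML1ox library carries the transgene, and wild-type plants of the same clone (WT, 2 libraries per harvest) and TEML2ox plants of the lines TEML2_1ox and TEML2_2ox (4 per harvest) served for comparison.

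Temperate trees stop growing when days shorten and enclose the shoot tip in a bud. In poplar such buds pass into dormancy, from which they are released by long exposure to low, non-freezing temperature, and they burst only in later warmth. Low temperature also induces cold acclimation in buds. TEMPRANILLO proteins are DNA-binding repressors known from Arabidopsis, where they delay flowering, and the series title places the poplar proteins in the release of dormancy.

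The groups limit what the comparison can show. The 2 weeks of cold coincide with 2 more weeks of short days, a later harvest and a separate count table, and these cannot be told apart. The promoter that drives the transgene is not given in the sources used here. Each replicate was a pool, described as 2 plants in one place of the labels and as 3 buds in another. The gene identifiers come without names, so TEML1 itself, markers of the bud tissue and lists of cold, dormancy, hormone and clock genes could not be looked up. Genes are therefore given by identifier alone, and the tissue label was not checked against markers.

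The 8 libraries held between 35779227 and 38978339 counts over 31823 genes. Of these genes, 26639 passed the filter on low counts and were tested, and 1894 had 0 counts in all 8 libraries. The 5184 genes that did not pass held 0.0177% of the counts. CPM is a gene's count scaled to the TMM-adjusted library total. The first principal component of log2 CPM held 79.98% of the variance and placed the SD8 libraries between -110 and -88.2 and the CH2 libraries between 87.6 and 115. The second held 5.57% and placed TEML1_1ox between -35.2 and -14.5 and TEML1_2ox between 6.45 and 37.4. Harvest therefore separated the libraries along the first axis, and line along the second, with no overlap on either.

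The RNA of most genes measured in TEML1ox buds differed between SD8 and CH2. In edgeR's quasi-likelihood test with line as a covariate, 19637 of 26639 genes passed a Benjamini-Hochberg adjusted p of 0.05, which is 73.7% of those tested. Of these, 9445 (35.5%) were higher at CH2 and 10192 (38.3%) were lower. The genes that fell moved further, with a median log2 fold change of -1.05 against 0.68 for the genes that rose. The buds were measured in bulk, so fewer cells of a type and less RNA per cell cannot be told apart.

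Larger changes were more often falls than rises. Among genes past the threshold, 2623 rose (9.85%) and 5340 fell (20.0%) at least 2-fold. At least 4-fold, 643 rose (2.41%) and 2163 fell (8.12%), and at least 16-fold, 103 rose (0.387%) and 339 fell (1.27%). A test against a 2-fold change itself (edgeR's glmTreat, adjusted p under 0.05) called 5163 genes (19.4%), of which 1665 were higher (6.25%) and 3498 lower (13.1%).

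How the calls divide between higher and lower depended on the scaling of the libraries. Rises made up 48.1% of the calls under TMM scaling, where the median log2 fold change of all genes was -0.06. They made up 48.7% under DESeq2's size factors (median -0.04), 40.1% under upper-quartile scaling (median -0.19) and 32.7% with library totals alone (median -0.32). Falls outnumbered rises among changes of at least 2-fold under TMM scaling, the setting for which these counts are given.

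A call also meant a separation of the libraries in most cases. For 17649 called genes, 89.9% of the calls, all 4 CH2 libraries lay on one side of all 4 SD8 libraries, beside 67.4% of all genes tested, of which 73.7% were called. The 7002 genes not called are not shown to be stable. For 3635 of them the 95% interval of the change lay within 0.5 on the log2 scale in both directions, and for 1746 it reached 1 or more.

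The genes named for chilling are the 1 with the largest fold and the 1 with the largest difference in CPM in each direction, among called genes that averaged 1 or more in log2 CPM and whose harvests did not overlap. By that rule the strongest rise by fold was that of PtXaAlbH.13G005600.v5.1. At SD8 its CPM was 1.04 and 1.35 in TEML1_1ox and 1.33 and 2.47 in TEML1_2ox. At CH2 it was 766 and 797 in TEML1_1ox and 1352 and 911 in TEML1_2ox. The mean went from 1.55 ± 0.63 to 956 ± 271 CPM (SD, n = 4), and every chilled library lay far above every unchilled one in both lines. The log2 fold change was 9.28 ± 0.22 (SE; edgeR, adjusted p = 3.53e-09). In the fit of all 20 libraries the gene rose by 8.52 ± 0.48 in WT and 9.002 ± 0.346 in TEML2ox on the same scale, and the difference between TEML1ox and WT did not pass the threshold (0.76 ± 0.50, edgeR adjusted p = 0.579).

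The largest rise in CPM was that of PtXaAlbH.06G007600.v5.1, which was already abundant before chilling. At SD8 it stood at 1981 and 2397 CPM in TEML1_1ox and 2620 and 2949 in TEML1_2ox. At CH2 it stood at 11882 and 14902 CPM in TEML1_1ox and 15293 and 12337 in TEML1_2ox. The lowest chilled library was thus well above the highest unchilled one. At CH2 it was the gene with the second highest count in all 4 libraries. Its log2 fold change was 2.46 ± 0.14 (SE; edgeR, adjusted p = 2.03e-07). In the fit of 20 libraries it was 2.46 ± 0.21 in TEML1ox, 2.40 ± 0.30 in WT and 2.65 ± 0.22 in TEML2ox.

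By the same rule, which leaves out genes that averaged under 1 in log2 CPM, the strongest fall by fold was that of PtXaAlbH.03G110200.v5.1, a gene of modest level. Its SD8 values were 7.15 and 5.74 CPM in TEML1_1ox and 4.86 and 4.56 in TEML1_2ox. After chilling only 4 and 0 counts were left in TEML1_1ox and 1 and 0 in TEML1_2ox. The log2 fold change was -7.17 ± 0.43 (SE; edgeR, adjusted p = 2.68e-07), and with so few counts at CH2 it ran from -8.67 to -6.71 when single libraries were left out. In the fit of 20 libraries TEML1ox gave -7.16 ± 0.48, WT -6.43 ± 0.62 and TEML2ox -6.75 ± 0.46.

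Under that rule the largest fall in CPM was that of PtXaAlbH.13G084300.v5.1, the gene with the second highest count in all 4 SD8 libraries. It stood at 7366 and 9156 CPM in TEML1_1ox and 12078 and 7938 in TEML1_2ox at SD8. At CH2 it stood at 1730 and 4575 CPM in TEML1_1ox and 2188 and 3426 in TEML1_2ox. The harvests did not overlap, but the replicates spread widely within each, and the log2 fold change was -1.61 ± 0.29 (SE; edgeR, adjusted p = 0.000631). In the fit of 20 libraries WT gave -0.61 ± 0.49 (adjusted p = 0.297) and TEML2ox -1.24 ± 0.35 (adjusted p = 0.00397). The TEML2ox lines were unlike: the mean of 2 libraries went from 10272 to 2813 CPM in TEML2_1ox and from 3326 to 2955 in TEML2_2ox. The difference between TEML1ox and WT was -1.01 ± 0.60 and did not pass the threshold (edgeR, adjusted p = 0.534).

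**Figure D1:**
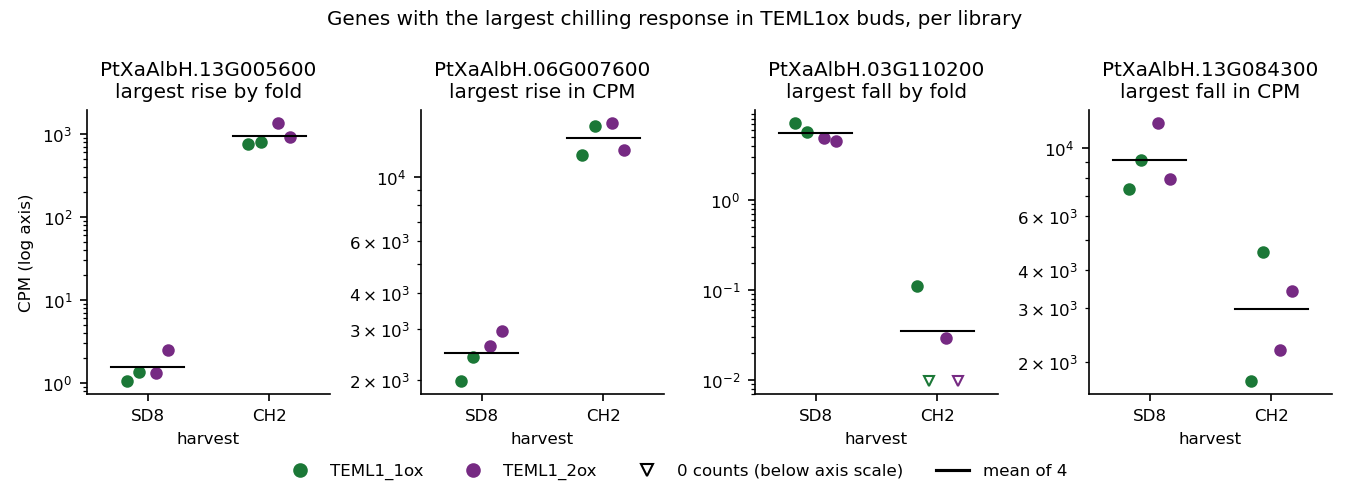
CPM (log axis) of the 4 named chilling genes in each TEML1ox library, by harvest and line. In every panel the 4 CH2 points lie on one side of the 4 SD8 points, from 1.04 to 2.47 against 766 to 1352 CPM for PtXaAlbH.13G005600.v5.1, and from 7366 to 12078 against 1730 to 4575 CPM for PtXaAlbH.13G084300.v5.1.

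The gene with the highest count in all 8 libraries did not pass the test. PtXaAlbH.13G084200.v5.1, chosen after its values were seen, took 4.63 and 5.31% of the counts in TEML1_1ox and 5.00 and 4.40% in TEML1_2ox at SD8. At CH2 it took 2.30 and 4.52% in TEML1_1ox and 2.38 and 3.41% in TEML1_2ox. By share of counts 1 chilled library of TEML1_1ox reached the SD8 range and the other 3 lay below it. In TMM-scaled CPM that library, at 50692, lay above all 4 SD8 libraries, which ran from 40163 to 48397. The log2 fold change was -0.35 ± 0.23 (SE; edgeR, adjusted p = 0.182). Its identifier is next to that of PtXaAlbH.13G084300.v5.1, and if the 2 are near-identical copies the authors' counting could have split reads between them, so both levels are uncertain.

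The direction of the response varied with the level of a gene. Among the 3216 tested genes with a mean log2 CPM under 0, 11.7% rose and 40.5% fell. Between 0 and 2 on that scale (3951 genes) 15.9% rose and 51.7% fell, and between 2 and 4 (7037 genes) 26.5% rose and 47.9% fell. The order turned above that: between 4 and 6 (8889 genes) 48.0% rose and 31.5% fell, and between 6 and 8 (3128 genes) 65.4% rose and 19.1% fell. At 8 or more (418 genes) 64.6% rose and 19.4% fell. The median log2 fold change went with it, from -0.81 in the lowest class to 0.56 in the highest. Falls were thus the more frequent call below a mean log2 CPM of 4 and rises above it, under TMM scaling.

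**Figure D2:**
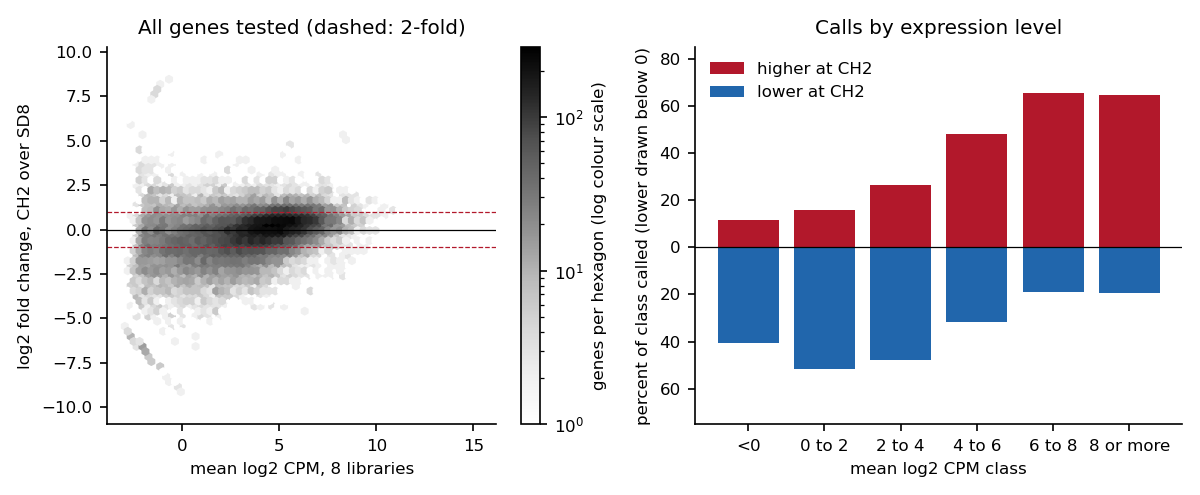
Log2 fold change (CH2 minus SD8) against mean log2 CPM for the tested genes, with the share of genes higher and lower in each level class. Falls predominate below a mean log2 CPM of 4, with 51.7% lower against 15.9% higher between 0 and 2, and rises predominate above it, with 65.4% higher against 19.1% lower between 6 and 8.

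The RNA pool of TEML1ox buds shifted accordingly. The 2623 genes that rose at least 2-fold held 9.69 ± 0.35% of the SD8 counts and 26.0 ± 1.15% of those of CH2 (SD, n = 4). The 5340 genes that fell at least 2-fold held 15.3 ± 0.55% at SD8 and 3.88 ± 0.36% at CH2. The 11674 genes called with smaller changes held 52.3% at SD8 and 52.1% at CH2. These sets were picked from the same libraries, so the shares describe the change and do not test it.

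Fewer genes were detected after chilling. Genes with at least 10 counts numbered 26230, 26066, 25841 and 25838 in the SD8 libraries and 25137, 24926, 24689 and 24909 in the CH2 libraries. Every chilled library was below every unchilled one. The difference of means was -1078.5 genes (2-sided exact permutation test, p = 0.0286, n = 4 and 4, the smallest p of its 70 regroupings). This test and those below regrouped the 8 libraries without regard to line. The CH2 libraries were the larger ones, at 38329996 ± 433076 counts against 37223209 ± 986036 before chilling (SD, n = 4; exact permutation p = 0.0286). The counts also gathered on fewer genes: the most abundant genes that together hold 50% of the counts numbered 2055.5 ± 78.3 at SD8 and 1579 ± 88.3 at CH2 (exact permutation p = 0.0286, n = 4). The share of the 100 most abundant genes, 16.8 ± 0.69% at SD8 and 18.4 ± 1.32% at CH2, did not pass the test (exact permutation p = 0.0857, n = 4).

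The most abundant transcripts turned over in part. Of the 100 genes with the highest mean level at SD8 and the 100 at CH2, 52 were shared, and of the top 10 of each, 4. Among the SD8 top 100, 44 fell and 39 rose, and 30 fell at least 2-fold. Among the CH2 top 100, 84 rose and 6 fell, and 58 rose at least 2-fold. A gene ranked by its CH2 level is more likely to be one that rose, so these counts describe the lists and are no test, and they stand beside 35.5% higher and 38.3% lower among genes tested. The lowest rank at CH2 of an SD8 top 10 gene was 174, and the lowest rank at SD8 of a CH2 top 10 gene was 740.

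Few genes went between silence and expression. Silence was taken as at most 3 counts over the 4 libraries of a harvest, and expression as at least 1 CPM, here by the unadjusted library total, in every library of the other. By that rule 2 genes appeared and 11 disappeared with chilling; all 13 were also called, beside 73.7% of genes tested, which the rule nearly fixes. The 2 that appeared are named after their values were seen. PtXaAlbH.07G033100.v5.1 had 0 counts in all 4 SD8 libraries and 75, 65, 91 and 64 in the CH2 libraries (edgeR, adjusted p = 6.99e-06). PtXaAlbH.14G023500.v5.1 had 2, 0, 0 and 0 counts at SD8 and 121, 61, 210 and 294 at CH2 (edgeR, adjusted p = 8.89e-07). Of the 11 that disappeared, 10 were at the same floor in chilled WT and 6 in chilled TEML2ox, where the rule sums over 2 and 4 libraries.

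The lines TEML1_1ox and TEML1_2ox were also tested apart. In a joint fit of the 8 libraries, with 2 libraries of each line per harvest and a shared estimate of the spread, TEML1_1ox had 16747 calls (62.9% of genes tested) and TEML1_2ox 17007 (63.8%). Fitted without the other line, TEML1_1ox had 17069 calls of 26147 genes (65.3%) and TEML1_2ox 16026 of 25919 (61.8%), so the order of the lines depended on the fit. In the joint fit the overlap was as follows. Both called 14625 genes in the same direction, 7285 higher and 7340 lower, which is 87.3% of the TEML1_1ox calls and 86.0% of the TEML1_2ox calls. Another 13 genes were called in opposite directions. Of the 19637 genes called over both lines, 19625 had the same sign in each. The fit over both lines favours genes that change alike in them, so this count is largely fixed by the selection and is no test. Pearson's r between the responses of the lines was 0.863 across 26639 genes, which are not independent replicates and share the TMM scaling.

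Over the genes that rose, the median log2 fold change was 0.68 in TEML1_1ox and 0.69 in TEML1_2ox, and over the genes that fell it was -1.01 and -1.07. For the 21704 genes that averaged 1 or more in log2 CPM, the median difference between the lines was 0.16 in absolute value, and 316 genes differed by 1 or more. No gene passed the test of the difference itself (edgeR, interaction of line and harvest, 0% called, smallest adjusted p = 0.124), although 2164 had an unadjusted p under 0.05. DESeq2 called 52 genes for that difference and limma-voom 0.

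**Figure D3:**
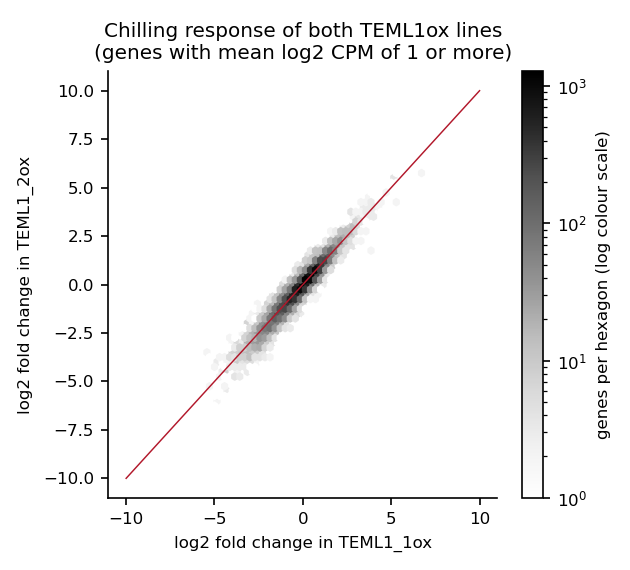
Log2 fold change with chilling in TEML1_2ox against that in TEML1_1ox, each line from 2 libraries per harvest. Shown are the 21704 tested genes that averaged 1 or more in log2 CPM, which lie along the diagonal. Over all 26639 tested genes, including those not shown, r was 0.863 and 14625 were called in the same direction in both lines.

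Over both harvests 7 genes differed between the lines (0.0263% of genes tested), 2 higher (0.00751%) and 5 lower (0.0188%) in TEML1_2ox. The clearest was PtXaAlbH.11G123600.v5.1. It had 0 counts in all 4 TEML1_1ox libraries, and in TEML1_2ox it stood at 92.4 and 50.5 CPM at SD8 and 54.1 and 64.1 at CH2. Against a floor of 3 counts over the 4 TEML1_1ox libraries, it was at least 3366-fold higher in TEML1_2ox (edgeR, adjusted p = 0.000427). The call was lost under limma-voom (adjusted p = 0.0737). WT and TEML2ox had 0 counts too, except 6 in WT replicate 1 at SD8, so the signal belonged almost wholly to 1 line. Its change with chilling within that line did not pass the threshold (log2 fold change -0.27 ± 0.26, SE; edgeR, adjusted p = 0.384).

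Lower in TEML1_2ox was PtXaAlbH.04G164900.v5.1. It ran from 8.71 to 20.8 CPM in the 4 TEML1_1ox libraries and from 0.994 to 2.13 in the 4 TEML1_2ox libraries, a log2 difference of -3.25 ± 0.30 (SE; edgeR, adjusted p = 0.00616). This call too was lost under limma-voom (adjusted p = 0.0737). TEML2ox and WT libraries held about the TEML1_2ox level, at group means between 0.771 and 1.33 CPM. PtXaAlbH.11G106200.v5.1 was also lower, at 30.6 to 59.1 CPM against 107.6 to 149 in TEML1_1ox. Group means lay between 31.6 and 47.4 CPM in WT and TEML2_1ox, while TEML2_2ox went from 273 at SD8 to 43.4 at CH2. The log2 difference between the TEML1ox lines was -1.53 ± 0.19 (SE; edgeR, adjusted p = 0.0397). This call was lost when any of 5 of the 8 libraries was left out, with an adjusted p of up to 0.160.

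The other 4 calls between lines are named after their values were seen. PtXaAlbH.03G171100.v5.1 was the second gene higher in TEML1_2ox, at 76 to 133 counts against 7 to 22. PtXaAlbH.02G116800.v5.1 and PtXaAlbH.05G086600.v5.1 gave log2 differences of -0.93 and -0.84. PtXaAlbH.05G086600.v5.1 overlapped between lines because it differed more between harvests than between lines. The last, PtXaAlbH.10G011100.v5.1, had 5131 and 6288 counts in TEML1_1ox at SD8 and 0 in the other 6 TEML1ox libraries.

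Replicates disagreed about that last gene elsewhere in the series. PtXaAlbH.10G011100.v5.1 had 6878 and 0 counts in the WT replicates at SD8, 0 and 6912 in TEML2_1ox at SD8 and 0 and 575 in WT at CH2, and it was at 0 in 15 of 20 libraries. Genes at 0 in one replicate and at 100 counts or more in the other numbered 5 in the 8 TEML1ox libraries and 11 in all 20. Of the 11, 8 were called for chilling in TEML1ox, beside 73.7% of genes tested, and none was among the genes named for chilling or for the difference from WT. What gives such a pattern was not tested.

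The TEML1ox response was set against that of WT in a fit of all 20 libraries, which tested 27337 genes. TEML1ox had 19647 calls in that fit (71.9%) and WT 16776 (61.4%) from fewer libraries. The TEML1ox and WT responses share no library. Of the TEML1ox calls, 19099 (97.2%) had the same sign in WT, and 24 were called in the opposite direction there. The responses correlated at r = 0.939 across 21751 genes that averaged 1 or more in log2 CPM, and the median difference between them was 0.18 in absolute value beside a median SE of 0.18. The median difference was thus about as large as the median SE, which does not show that the responses were equal.

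Counts of calls depend on the number of libraries, which differs between these groups. With each line and WT fitted as groups of 2 per harvest, TEML1_1ox had 17850 calls (65.3%), TEML1_2ox 18068 (66.1%), WT 18167 (66.5%), TEML2_1ox 18066 (66.1%) and TEML2_2ox 19159 (70.1%). Genes that fell at least 2-fold numbered 5024 in TEML1_1ox (18.4%), 5211 in TEML1_2ox (19.1%) and 5189 in WT (19.0%). The counts themselves were not compared by a test.

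The test of the difference in response between TEML1ox and WT called 2 genes (0.00732%), while 3304 had an unadjusted p under 0.05. PtXaAlbH.14G087000.v5.1 rose less in TEML1ox. Its CPM at SD8 was 9.99, 11.4, 10.3 and 9.97 in TEML1ox and 4.94 and 5.98 in WT. At CH2 it was 14.9, 15.8, 20.8 and 16.99 in TEML1ox and 27.7 and 33.9 in WT. TEML1ox was above WT before chilling and below it after, with no overlap at either harvest. Its log2 fold change was 0.72 ± 0.12 in TEML1ox and 2.50 ± 0.18 in WT, a difference of -1.78 ± 0.22 (SE; edgeR, adjusted p = 0.00445). TEML2ox lay between them at 1.32 ± 0.12. The call was lost without WT replicate 1 at SD8 (adjusted p = 0.101), the library whose column name carries an extra digit and was matched because no other sample's label matched it.

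PtXaAlbH.11G031500.v5.1 fell less in TEML1ox. Its CPM at SD8 was 32.5, 28.9, 29.5 and 32.0 in TEML1ox and 39.2 and 32.3 in WT, which overlapped the TEML1ox range. At CH2 it was 16.2, 14.9, 13.1 and 12.7 in TEML1ox and 6.10 and 8.70 in WT, with no overlap. The log2 fold change was -1.11 ± 0.10 in TEML1ox and -2.27 ± 0.15 in WT, a difference of 1.16 ± 0.18 (SE; edgeR, adjusted p = 0.0486). TEML2ox gave -0.88 ± 0.10. This call sat at the threshold and was lost when any of 11 of the 20 libraries was left out, with an adjusted p of up to 0.242.

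**Figure D4:**
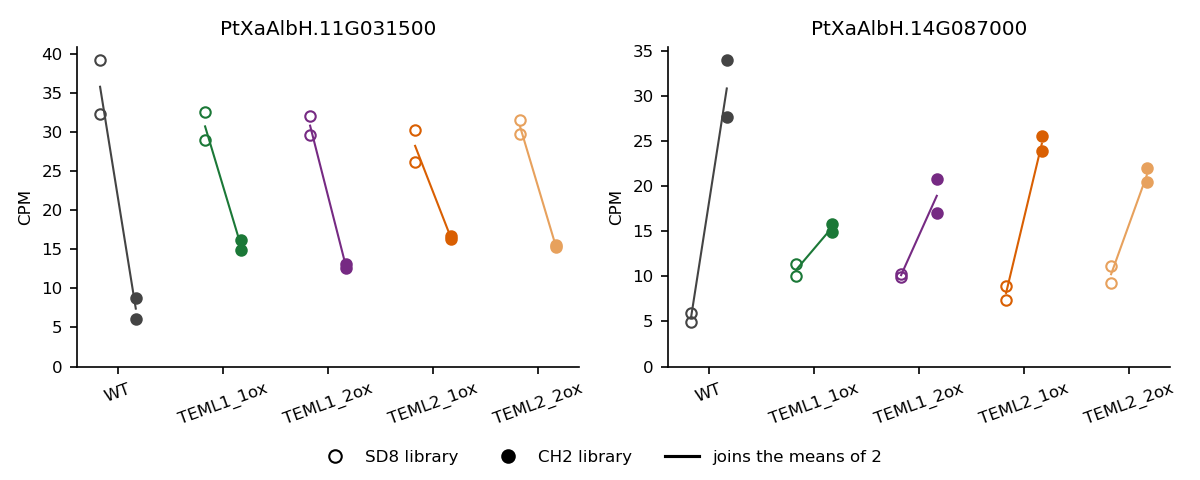
CPM by harvest in every TEML1ox, TEML2ox and WT library for the 2 genes whose chilling response differed between TEML1ox and WT. PtXaAlbH.14G087000.v5.1 reached 14.9 to 20.8 CPM in chilled TEML1ox and 27.7 and 33.9 in chilled WT, and PtXaAlbH.11G031500.v5.1 fell to between 12.7 and 16.2 CPM in TEML1ox and to 6.10 and 8.70 in WT.

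The number of genes that pass this test changed with the fit. When every line formed a group, so that differences between lines of a construct left the error, 341 genes were called (1.25%). The biological coefficient of variation was 0.106 in that fit and 0.155 with lines pooled. Of the 341, the TEML1ox response was above that of WT for 206 (0.754%) and below it for 135 (0.494%), with a median size of 0.56 on the log2 scale, and 57 reached 1. Classed by the TEML2ox response, which is no term of this difference, the genes with a log2 fold change above 0 in TEML2ox had 112 with TEML1ox above WT and 86 below. Those with one below 0 had 94 above WT and 49 below. That fit takes the lines as fixed and speaks of these lines only.

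The genes called in one genotype alone are not shown to differ. There were 4212 genes called in TEML1ox and not in WT and 1341 called in WT and not in TEML1ox, and 0 of either passed the test of the difference in edgeR with constructs as groups. The unadjusted count, 3304, was over all genes.

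The response was set against that of TEML2ox in the same fit, again with no shared library. Of the TEML1ox calls, 19493 (99.2%) had the same sign in TEML2ox, and 9 were called in the opposite direction. The responses correlated at r = 0.960 over the 21751 genes, and their median difference was 0.11 in absolute value beside a median SE of 0.15. No gene passed the test of the difference (edgeR, 0% called, smallest adjusted p = 0.243), while 1761 had an unadjusted p under 0.05. DESeq2 called 27 and limma-voom 0, and the edgeR fit in which every line formed a group called 57 (0.209%).

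Genes grouped by their response in TEML2ox, which shares no library with TEML1ox or WT, gave the following medians in TEML1ox and WT. The 157 genes with a TEML2ox log2 fold change under -4 had medians of -4.15 in TEML1ox and -4.19 in WT. The 2443 genes between -2 and -1 had -1.24 and -1.29, and the 1822 between 1 and 2 had 1.22 and 1.22. The 62 genes at 4 or more had 4.68 and 4.89. The 76 genes between 3 and 4 were furthest to one side, with medians of 3.12 in TEML1ox and 3.03 in WT, a median difference of 0.24 and 69.7% of genes higher in TEML1ox. The medians were not tested.

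The responding genes were spread over all 19 numbered blocks of identifiers, that is the 2 digits before the letter G. The share of tested genes that rose ran from 29.0% in block 19 to 38.8% in block 6. The share that fell at least 2-fold ran from 17.3% in block 18 to 26.5% in block 19, with 24.5% in block 11, beside 20.0% over all genes. Whether the blocks are chromosomes, and whether consecutive numbers are neighbours on them, was not checked, since no genome was used here.

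Genes with consecutive identifiers tended to respond alike. The log2 fold changes of adjacent tested identifiers correlated at r = 0.134 over 26620 pairs, against 0.060 at 2 positions apart, 0.013 at 10 and 0.0094 at 50. After a gene that rose at least 2-fold, the next also did so in 16.4% of cases, beside 9.85% over all genes. After one that fell at least 2-fold, the next also did in 26.4%, beside 20.0%. Pairs share members and near-identical copies may share reads, so these values are a description.

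The longest runs of consecutive tested identifiers that rose or fell at least 2-fold were picked for their values and are described without a test. The longest rising run held 10 genes, from PtXaAlbH.01G068700.v5.1 to PtXaAlbH.01G069600.v5.1, with log2 fold changes from 1.48 to 5.46. The largest, 5.46 ± 0.78 (SE), was that of PtXaAlbH.01G069200.v5.1, the gene of lowest level in the run. It averaged 0.0060 CPM at SD8 and 0.41 at CH2, so the size of its change is uncertain, and WT gave 2.74. The summed CPM of the 10 genes was 9.23, 11.5, 8.72 and 12.1 at SD8 and 49.3, 48.5, 67.6 and 58.7 at CH2. Most of the sum came from PtXaAlbH.01G068800.v5.1, which went from 6.39 ± 1.03 to 29.8 ± 6.52 CPM (SD, n = 4). The harvests did not overlap for any of the 10, beside 67.4% of all genes tested and 89.9% of those called. Only called genes could enter a run, which nearly fixes this. The same genes gave 1.33 to 3.68 in WT and 1.16 to 4.26 in TEML2ox.

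The longest falling run held 13 genes, from PtXaAlbH.19G096500.v5.1 to PtXaAlbH.19G097700.v5.1, with log2 fold changes from -2.67 to -1.06. The largest fall, -2.67 ± 0.72 (SE), was that of PtXaAlbH.19G097600.v5.1. It was the gene of lowest level in the run, at 0.51 CPM at SD8 and 0.078 at CH2. The summed CPM of the 13 genes was 49.2, 66.3, 50.7 and 67.3 at SD8 and 14.0, 14.0, 18.7 and 17.6 at CH2. The harvests did not overlap for any of the 13, beside 67.4% of all genes tested and 89.9% of those called, which the choice of called genes again nearly fixes. The same genes gave -2.98 to -0.83 in WT. Runs of 4 or more numbered 15 among rises and 104 among falls, where falls were the larger class of genes.

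**Figure D5:**
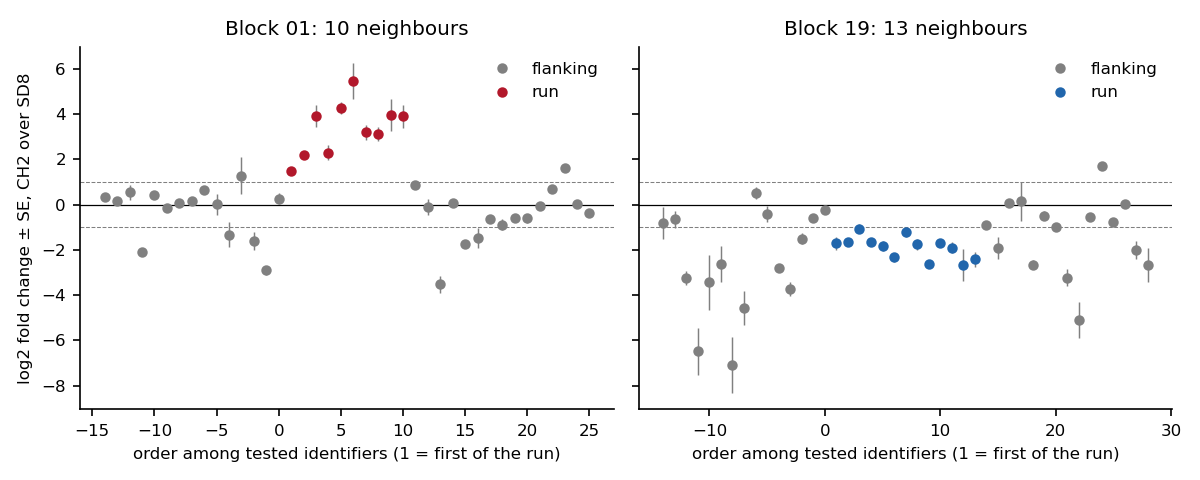
Log2 fold change with chilling in TEML1ox of consecutive identifiers in and around the longest rising run (10 genes) and the longest falling run (13 genes). Within the runs the values lie between 1.48 and 5.46 and between -2.67 and -1.06. The 5.46 and the -2.67 are those of the gene with the lowest CPM in each run.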

How the data were processed

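Polyadenylated RNA of apical buds was sequenced on an Illumina platform from stranded mRNA libraries, per the labels' protocols. The authors deposited raw counts of reads, in a table for each harvest, and the tables were joined on the gene identifier. The submitters' processing notes name HISAT2, while the sources used here name no counting program, genome build or strand setting. Near-identical or overlapping genes may therefore share reads.

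The counts were fitted in R 4.3.3 with edgeR 4.0.16 (filterByExpr by line and harvest, TMM scaling, quasi-likelihood F test, glmTreat at a log2 fold change of 1), with Benjamini-Hochberg adjustment over all genes tested and a threshold of 0.05. The main fit took the 8 TEML1ox libraries with line as covariate. Differences between genotypes came from all 20 libraries grouped by construct and harvest. CPM values of single genes are TMM-scaled for the 8 libraries, or for the 20 where WT is compared, and do not correct for gene length. The SE is the absolute log2 fold change over the square root of F. The biological coefficient of variation of the main fit was 0.125. The fits were tested on simulated data in which few genes changed, as many up as down. Most genes were called in the real data, so the simulation does not check the scaling or the calls under such broad change. DESeq2 1.42.0 and limma 3.58.1 served as alternatives.

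The labels call replicates biological but do not say whether the pools came from separate experiments, so p-values measure the spread between these samples. Replicate pairs differed by more than sampling noise (chi-square per degree of freedom 11.4 to 29.6), and each counted as a sample. The column of WT replicate 1 at SD8 carries an extra digit in its name and was matched because no other sample's label matched it. Genes named were, for chilling, the 1 with the largest fold and the 1 with the largest CPM difference in each direction among called genes that averaged 1 or more in log2 CPM without overlap of harvests. For differences between lines or responses they were up to 2 per direction by size among called genes with that average, between lines also without overlap of the 4 against 4 libraries. The comparison and the lists were chosen with earlier results of these data known. Lists of named genes and markers had no use without gene names.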

Additional observations from a re-analysis of the deposited data

Results flagged for a closer look

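The total count of TEML1_1ox replicate 2 at CH2, 38978339, stood apart from the other 3 chilled TEML1ox libraries. It was the only such case among 28 groups of 4 libraries looked at, where chance gives about 1 in 20.

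The chilling response of 2 genes differed between TEML1ox and WT by a test of the difference. The log2 difference was -1.78 for PtXaAlbH.14G087000.v5.1 and 1.16 for PtXaAlbH.11G031500.v5.1 (edgeR, adjusted p = 0.00445 and 0.0486). The WT response rests on 2 libraries per harvest, and neither call survived the loss of WT replicate 1 at SD8, the library whose column name carries an extra digit.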

How the results depend on the processing

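The counts of chilling calls stayed within 1.5 times under each alternative run. The largest shift was with library totals alone, which gave 6443 higher and 13248 lower. Whether the same genes were called was not counted. Single libraries left out gave 18606 to 19386 calls (8967 to 9396 higher, 9631 to 9990 lower). The test against 2-fold gave 4658 to 4980 (1525 to 1636 higher, 3115 to 3353 lower), the TEML1_1ox response 13538 to 17359, the TEML1_2ox response 14002 to 16899, and the difference in detected genes -1152 to -999.75. With library totals alone 1029 genes were called more than 2-fold higher. Against 4-fold, a log2 fold change of 2, 1174 genes were called, 285 higher and 889 lower. The 4 named chilling genes passed under all 11 alternatives and with each of 8 libraries left out.

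The difference from WT, 2 genes, moved most. It called 1 gene under DESeq2's size factors, upper-quartile scaling, library totals, limma-voom, a filter of 50 counts in 2 libraries and an adjusted p under 0.01. It called 6 with TEML1ox and WT alone, 37 without TEML2_2ox, 341 with each line as its own group and 401 with DESeq2. Libraries left out gave 0 to 36: 36 without TEML1_2ox SD8 replicate 2, 33 and 18 without TEML2_2ox SD8 replicates 1 and 2, 28 without TEML1_1ox CH2 replicate 2, 9 without TEML2_1ox SD8 replicate 2, 4 without TEML2_2ox CH2 replicate 1, 0 without WT SD8 replicate 1, and 1 or 2 otherwise. The difference from TEML2ox called 27 genes with DESeq2, 57 with each line as its own group and 0 to 4 with libraries left out, 4 without TEML1_2ox SD8 replicate 1. The difference in response between lines called 52 with DESeq2 and 0 to 3 with libraries left out, 1 without TEML1_1ox CH2 replicate 2 and 3 without TEML1_2ox SD8 replicate 2. The line difference, 7 genes, became 370 with DESeq2, 19 without a filter, 4 at an adjusted p under 0.01, and 4 to 15 with libraries left out (4 without TEML1_1ox CH2 replicate 1, 15 without TEML1_2ox CH2 replicate 2). The causes were not tested.

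Same-numbered deviations were nearly uncorrelated between harvests, at 0.046 in TEML1_1ox and -0.067 in TEML1_2ox. With 2 replicates per line and harvest, this cannot show whether same-numbered pools were related. With the replicate number as a block, chilling called 19052 genes, the differences between lines in response and from TEML2ox 0 each, and the difference from WT 0 genes (adjusted p = 0.0716 for PtXaAlbH.14G087000.v5.1). A block within lines is aliased with the line difference, so a number shared between lines was used there after seeing the data and called 4. No alternative reversed the sign for a named gene or for the difference in detected genes. Counts of calls have no sign to reverse. A line with 1 library left at a harvest was assumed to vary like the others. At this depth a gene of 3 counts or fewer over 4 libraries is at the floor.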
